A study of Mus musculus with 12 samples.

Results

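Havcr1, Lcn2, Sox9, Clu, Timp1 and Cd44 are genes by which injury of the renal tubule is followed in mice, and they are described here as 6 of the 19938 genes measured. They were chosen by symbol, with earlier results of these data known. Each had 1 probe set that carries its symbol alone, so no choice between probe sets was needed. All 6 were kept, with no filter on low values.

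The tubule is lined by epithelial cells that reclaim filtered solutes. When these cells are damaged they lose their transporters and switch on a second set of genes, some of which serve repair and some of which appear in urine as markers of injury. The glucocorticoid receptor (GR, gene Nr3c1) is a hormone-activated transcription factor that acts in most cell types, the tubule among them.

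RNA from renal cortex was measured on 12 Affymetrix mouse gene arrays, 3 in each of 4 groups. GR KO mice (Pax8-Cre;nr3c1 flox/flox) carry a recombinase driven by Pax8, which is active in tubular epithelium, so other cells of the cortex keep the receptor. Control mice (nr3c1 flox/flox) carry the floxed alleles and are listed without Pax8-Cre, so a difference between genotypes includes any effect of Pax8-Cre itself. Mice of both genotypes were examined 24 hours after an injection of glycerol into muscle, which releases myoglobin and causes acute kidney injury (AKI), or as an uninjected second cohort (healthy), so AKI and cohort cannot be told apart. No source used here states the age of the mice. The labels number the replicates and do not state whether 1 mouse gave 1 array. The spread behind each p-value may therefore be technical.

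Values are log2 expression values deposited by the authors, and each difference is a log2 difference ± its standard error (SE) from 1 limma fit over all genes and arrays. A difference was called at an adjusted p under 0.05 (Benjamini-Hochberg over 19938 genes). The 12 array medians differed little, with 7.09 the highest. All 13 genes of a proximal tubule marker list lay above the array median on all 12 arrays, and all 10 measured lymphocyte markers lay below it. Nr3c1 was lower on every GR KO array than on any control array, with 7.87 to 8.10 in GR KO AKI against 8.82 to 8.89 in control AKI, and 8.13 to 8.21 in healthy GR KO against 9.48 to 9.65 in healthy control. The positions of its probes relative to the floxed part were not analysed here. GR KO healthy replicate 1 was separate from its group on the third principal component (-34.8, with the other 11 arrays between -5.83 and 14.5). Control AKI replicate 1 was separate on the second (33.8, with 11.6 the next highest). Results that rest on either array are given without it. Cortex is a mixture of cells, so fewer cells of a type and less RNA per cell cannot be told apart.

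All 6 genes were higher after AKI in control mice, and all 6 were lower in GR KO AKI than in control AKI. In GR KO mice 4 of the 6 rose with AKI (Havcr1, Lcn2, Timp1 and Clu), while Sox9 and Cd44 did not pass. In healthy mice none of the 6 was called between genotypes (limma).

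**Figure D1:**
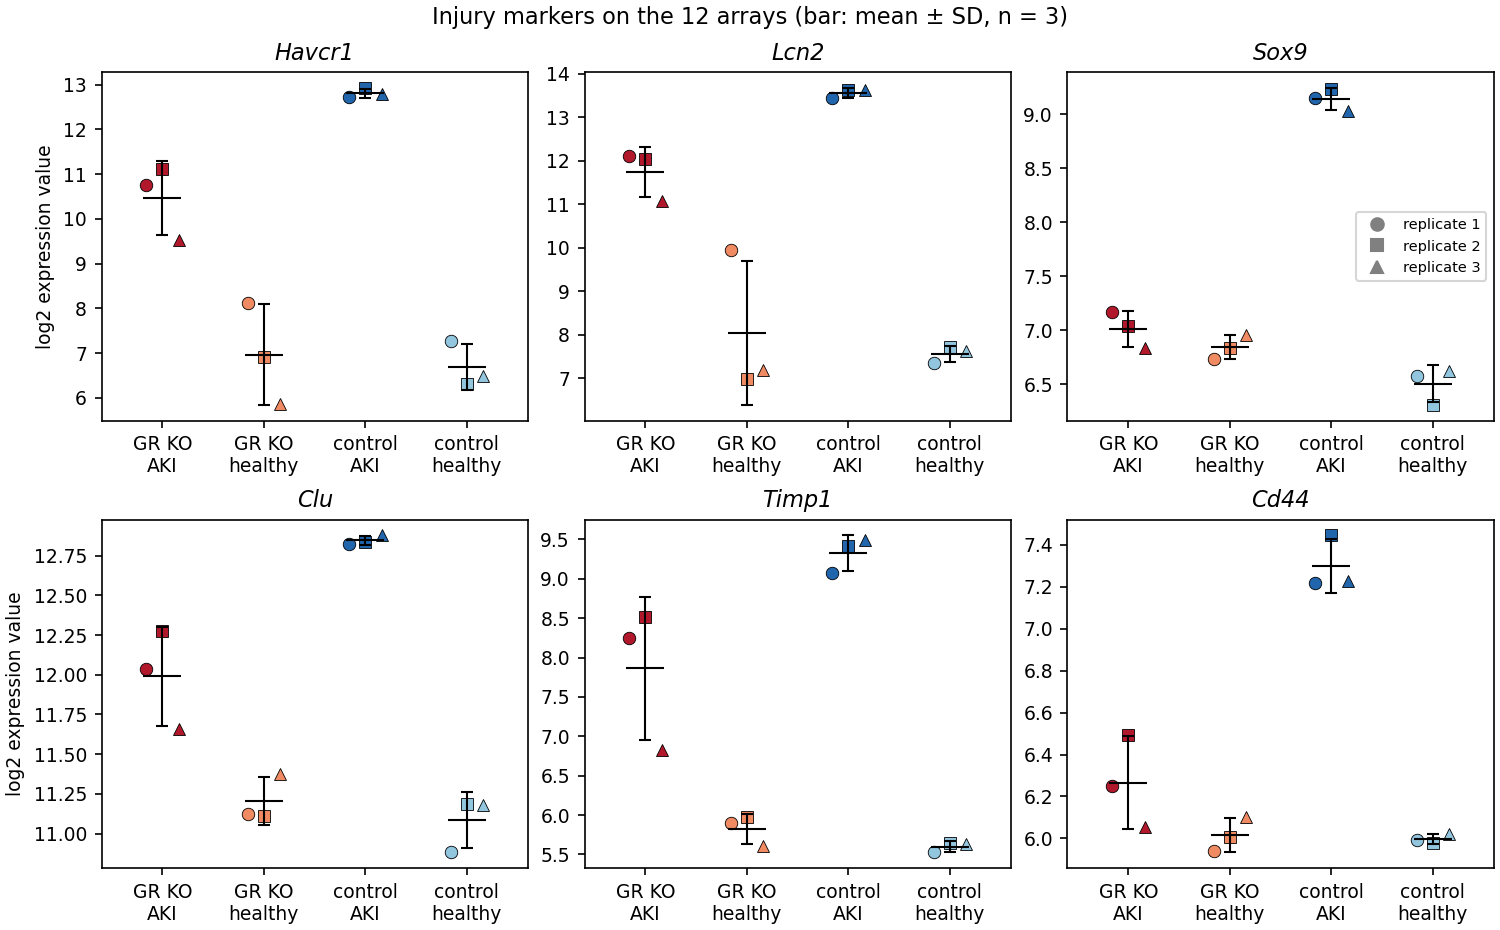
Each panel plots the log2 expression value of 1 gene on the 12 arrays, by group, with the mean ± SD (n = 3) as a bar and each replicate as its own symbol; the y axes differ between panels. In every panel the 3 control AKI arrays lie above the other 9, and for Sox9 and Cd44 the GR KO AKI arrays overlap those of healthy GR KO.

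Havcr1 encodes KIM-1, a receptor for phosphatidylserine that appears on the surface of injured proximal tubule cells and lets them take up dying neighbours. Its log2 values were 10.75, 11.11 and 9.53 in GR KO AKI, against 8.11, 6.90 and 5.87 in healthy GR KO. They were 12.73, 12.92 and 12.78 in control AKI, against 7.28, 6.31 and 6.49 in healthy control. AKI arrays lay above healthy arrays in both genotypes, and the healthy GR KO arrays spread over more than 2 log2 units around the healthy control arrays. AKI raised Havcr1 by 3.50 ± 0.46 in GR KO mice (adjusted p = 0.000791, limma, n = 3 per group), an 11.3-fold change. The rise in control mice was 6.12 ± 0.46 (adjusted p = 2.36e-07), or 69.4-fold. Within AKI, Havcr1 averaged 10.46 ± 0.83 in GR KO and 12.81 ± 0.10 in control mice (SD, n = 3 each), a difference of -2.35 ± 0.46 (adjusted p = 0.00246).

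Lcn2 encodes NGAL, a secreted protein that binds iron carriers of bacteria and limits their growth, made by injured tubule and stored by neutrophils. Its values were 12.11, 12.03 and 11.08 in GR KO AKI, against 9.94, 6.99 and 7.18 in healthy GR KO. In control mice they were 13.43, 13.62 and 13.62 with AKI, against 7.35, 7.72 and 7.62 when healthy. The groups did not overlap within either genotype, but healthy GR KO replicate 1 lay closer to the GR KO AKI arrays than to the other 2 of its group. Lcn2 rose by 3.70 ± 0.55 with AKI in GR KO mice (adjusted p = 0.00175), the largest increase of all 19938 genes in that comparison, and Havcr1 was the next. In control mice it rose by 5.99 ± 0.55 (adjusted p = 1.15e-06), and Havcr1 and Lcn2 ranked 4 and 5. After AKI the level of Lcn2 was 11.74 ± 0.57 in GR KO and 13.56 ± 0.11 in control mice (SD, n = 3 each). That difference of -1.82 ± 0.55 passed (adjusted p = 0.0326), but it no longer passed in 5 of the 12 fits that left out 1 array. These were the fits without control AKI replicate 1 (adjusted p = 0.0587), 2 (0.0877) or 3 (0.0651), or without GR KO AKI replicate 2 (0.0570) or 3 (0.136). The other 7 fits called it. Without GR KO healthy replicate 1, which is in neither AKI group, the difference stayed at -1.82 and its SE fell to 0.22 (adjusted p = 0.000116, limma). The SE of this difference thus depends on that array through the shared estimate of the spread.

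Patterns were compared over the 12 arrays, with predicted genes, clone names, small RNA genes and receptor segments skipped. Among the genes left, Lcn2 was nearest to Havcr1, and Havcr1 to Lcn2. After each gene was centred on its own mean, the pair differed by a root mean square of 0.53 on the log2 scale. This measure depends on the size of the changes as well as on their shape, so only genes with similarly large changes can come close. For both genes the next were Fgb, a fibrinogen chain (0.81 from Havcr1 and 0.97 from Lcn2), and Akr1b8, an aldo-keto reductase (0.91 and 1.05). The likeness of these 2 genes is a description of 12 arrays that share their groups and the array that stood apart.

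Because Havcr1 and Lcn2 moved together, the 250 bases before their start sites are shown, from RefSeq on GRCm38.p6. Havcr1 has 3 starts in that table, of which 2 are printed. The sequences run 5′ to 3′ on the gene's strand, in lower case with motif matches in capitals.
Havcr1 start 1, chr11:46739973-46740222, plus strand: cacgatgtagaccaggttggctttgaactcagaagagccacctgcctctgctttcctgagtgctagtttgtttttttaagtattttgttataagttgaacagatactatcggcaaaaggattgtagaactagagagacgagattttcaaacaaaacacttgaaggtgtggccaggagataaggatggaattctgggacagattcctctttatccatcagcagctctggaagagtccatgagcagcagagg
Havcr1 start 2, chr11:46750261-46750510, plus strand: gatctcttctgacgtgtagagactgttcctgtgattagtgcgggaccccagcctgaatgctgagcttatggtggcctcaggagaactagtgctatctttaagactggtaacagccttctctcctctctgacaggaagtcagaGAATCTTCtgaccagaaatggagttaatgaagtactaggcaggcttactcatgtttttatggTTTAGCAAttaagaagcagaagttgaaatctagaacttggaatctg
Lcn2, chr2:32387740-32387989, minus strand: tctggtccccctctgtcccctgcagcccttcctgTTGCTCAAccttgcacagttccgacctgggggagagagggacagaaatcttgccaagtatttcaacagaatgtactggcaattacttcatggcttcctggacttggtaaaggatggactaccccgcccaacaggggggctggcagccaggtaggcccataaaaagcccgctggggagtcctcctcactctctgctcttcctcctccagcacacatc
The motifs searched on both strands were those of AP-1 (TGANTCA), STAT factors (TTCNNNGAA), C/EBP factors (TTGCNNAA), NRF2 (TGACNNNGC), the GR half-site (AGAACA), heat shock factor (GAANNTTC) and NF-kB (GGGANNNNCC). Of 32851 such windows in the table, these motifs occur in 6.75%, 7.02%, 9.56%, 10.2%, 16.1%, 6.69% and 17.6%, in that order. In the Lcn2 window the capitals mark a C/EBP match, TTGCTCAA, 216 to 209 bases before the start. At Havcr1 start 2 they mark a C/EBP match on the other strand, TTTAGCAA, 46 to 39 bases before the start, and a heat shock match, GAATCTTC, 108 to 101 bases before it. No searched motif matched at Havcr1 starts 1 and 3 or in the windows of Timp1 and Cd44. A match is a stretch of letters, and factor binding was not measured. The table gave a window for 4 of the 6 genes, and Sox9 and Clu are named only.

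Sox9 encodes a transcription factor that is switched on in tubule cells that survive injury and re-enter growth. Its values were 7.17, 7.04 and 6.83 in GR KO AKI, against 6.74, 6.84 and 6.96 in healthy GR KO. Control mice had 9.15, 9.24 and 9.03 with AKI, against 6.58, 6.31 and 6.63 when healthy. The GR KO arrays with and without AKI overlapped, and all 6 of them lay between the healthy and the AKI arrays of control mice. Sox9 differed by 0.17 ± 0.12 with AKI in GR KO mice (adjusted p = 0.509), with a 95% interval of -0.09 to 0.43. In control mice it rose by 2.63 ± 0.12 (adjusted p = 1.15e-08), a 6.21-fold change. Between genotypes in AKI it differed by -2.12 ± 0.12 (adjusted p = 2.30e-07), with 7.01 ± 0.17 in GR KO and 9.14 ± 0.10 in control mice (SD, n = 3 each). Each of these 3 outcomes held in all 12 fits that left out 1 array. Genes nearest to Sox9 in pattern were Pxdc1 (root mean square difference 0.21), Klf6 (0.22), a zinc finger transcription factor, and Vtcn1 (0.23), a member of the B7 family of immune ligands.

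Clu encodes clusterin, a secreted chaperone that binds misfolded proteins and debris outside the cell. Its values were 12.04, 12.27 and 11.66 in GR KO AKI, against 11.12, 11.11 and 11.38 in healthy GR KO. They were 12.82, 12.84 and 12.88 in control AKI, against 10.88, 11.19 and 11.18 in healthy control. Neither genotype showed overlap between AKI and healthy arrays. AKI raised Clu by 0.78 ± 0.15 in GR KO mice (adjusted p = 0.00738) and by 1.76 ± 0.15 in control mice (adjusted p = 4.87e-07). Its level after AKI was 11.99 ± 0.31 in GR KO and 12.85 ± 0.03 in control mice (SD, n = 3 each), a difference of -0.86 ± 0.15 (adjusted p = 0.000832). Nop58 (0.14), Eif1a (0.16) and Mybbp1a (0.16) were nearest in pattern by root mean square difference. Nop58 encodes a nucleolar protein of ribosome assembly and Eif1a a translation initiation factor.

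Timp1 encodes a secreted inhibitor of matrix metalloproteinases, the enzymes that cut extracellular matrix. Its values were 8.25, 8.51 and 6.83 in GR KO AKI, against 5.90, 5.97 and 5.60 in healthy GR KO. With AKI, control mice had 9.07, 9.41 and 9.50, against 5.53, 5.64 and 5.63 when healthy. No AKI array overlapped a healthy array, and GR KO AKI replicate 3 lay well below the other 2 of its group. Timp1 rose by 2.04 ± 0.30 in GR KO mice (adjusted p = 0.00185) and by 3.73 ± 0.30 in control mice (adjusted p = 4.25e-07). In AKI it averaged 7.86 ± 0.91 in GR KO and 9.33 ± 0.22 in control mice (SD, n = 3 each), a difference of -1.46 ± 0.30 (adjusted p = 0.00349). That difference was -0.95 without GR KO AKI replicate 3 and passed in all 12 fits without 1 array. Nearest in pattern were Aldh1a2 (0.29), a retinoic acid synthesis enzyme, Cd14 (0.33), a receptor for bacterial lipopolysaccharide, and Pdk4 (0.37), which encodes an inhibitory kinase of pyruvate dehydrogenase.

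Cd44 encodes a cell surface receptor for hyaluronan, present on leukocytes and on regenerating tubule. Its values were 6.25, 6.49 and 6.05 in GR KO AKI, against 5.94, 6.01 and 6.10 in healthy GR KO. Control mice had 7.22, 7.45 and 7.23 with AKI, against 5.99, 5.98 and 6.02 when healthy. As for Sox9, the GR KO arrays with AKI overlapped those without. The change with AKI in GR KO mice was 0.25 ± 0.12 (adjusted p = 0.276), with a 95% interval of -0.00168 to 0.50, and no fit without 1 array called it. In control mice Cd44 rose by 1.30 ± 0.12 (adjusted p = 1.12e-06). Levels after AKI were 6.27 ± 0.22 in GR KO and 7.30 ± 0.13 in control mice (SD, n = 3 each), which differed by -1.03 ± 0.12 (adjusted p = 3.60e-05). Cep170 (0.09), a centrosomal protein gene, Ppfibp1 (0.10) and Akap12 (0.10), a scaffold of protein kinase A, were nearest in pattern.

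The 6 genes were chosen with earlier results of these data known, so the counts below describe them and do not test them against all genes. Over the 6 genes, 4 were called higher with AKI in GR KO mice, where 3.29% of all genes were called higher and 1.35% lower. In control mice 6 of 6 were called higher, with 13.6% of all genes called higher and 15.1% lower. In AKI 6 of 6 were called lower in GR KO than in control mice, with 7.34% of all genes called lower and 10% higher. Arrays of the compared groups did not overlap for 4 of 6 genes with AKI in GR KO mice, as for 12.8% of all genes upward and 12.5% downward. They did not overlap for 6 of 6 in control mice (19.3% of all genes upward, 20.4% downward), nor for 6 of 6 between genotypes in AKI (15.3% downward, 17.5% upward). By group mean the order of levels was the same for each gene: control AKI was highest, GR KO AKI next, then healthy GR KO, then healthy control. Between the last 2 no gene of the 6 passed the test, and the arrays overlapped for all but Sox9. The order of these 2 groups reversed for Havcr1 and Lcn2 without GR KO healthy replicate 1, and for Cd44 without GR KO healthy replicate 3. Between GR KO AKI and healthy GR KO, Sox9 and Cd44 did not pass and their arrays overlapped.

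**Figure D2:**
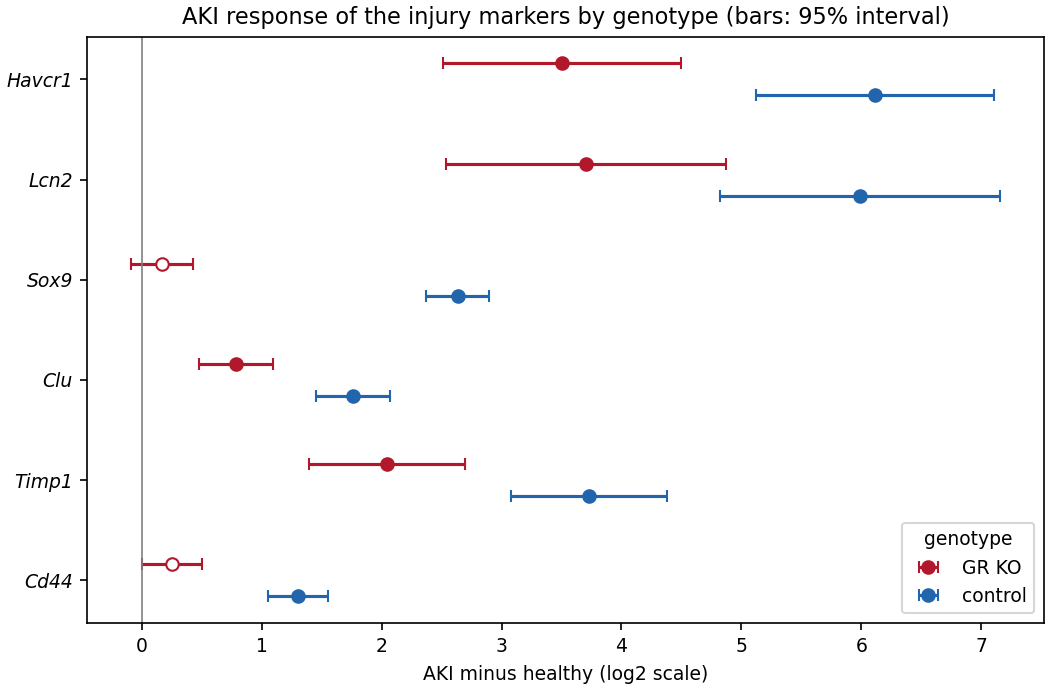
Points show the difference between AKI and healthy arrays on the log2 scale for each gene, with GR KO above control, bars give the 95% interval from limma, and open points did not pass an adjusted p of 0.05. The GR KO point lies left of the control point for each gene, and the open points are Sox9 (0.17) and Cd44 (0.25) in GR KO mice.

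Whether AKI acted differently in the 2 genotypes was tested as the interaction, the GR KO response minus the control response. It passed for 5 of 6 genes, all negative, with 4.06% of all genes called negative and 7.39% positive. Sox9 had the smallest p (-2.47 ± 0.17, adjusted p = 7.06e-06), followed by Cd44 (-1.05 ± 0.17, adjusted p = 0.00106) and Clu (-0.98 ± 0.21, adjusted p = 0.00662). Havcr1 (-2.62 ± 0.66, adjusted p = 0.0180) and Timp1 (-1.69 ± 0.43, adjusted p = 0.0197) also passed, Timp1 not without GR KO healthy replicate 1 (adjusted p = 0.0504). Lcn2 did not pass (-2.29 ± 0.77, adjusted p = 0.0726). Without GR KO healthy replicate 1 its interaction was smaller and passed (-1.34 ± 0.33, adjusted p = 0.0221). It also passed without GR KO healthy replicate 2 (-2.81, adjusted p = 0.0271) or 3 (-2.72, adjusted p = 0.0413).

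The share of the control response that was present in GR KO mice differed between the 6 genes. On the log2 scale it was 61.8% for Lcn2, 57.2% for Havcr1, 54.8% for Timp1, 44.6% for Clu, 19.3% for Cd44 and 6.41% for Sox9. Without GR KO healthy replicate 1 it was 77.7% for Lcn2 and 66.6% for Havcr1. Over the 519 genes that rose at least 2-fold in control mice and passed, the median share was 36.7%, with quartiles of 25.4% and 49.8%. By this measure Sox9 and Cd44 lay below the lower quartile, Lcn2, Havcr1 and Timp1 above the upper one, and Clu between them. The 519 genes, the 6 among them, were selected on the control response, by which each share is divided. The effect of that selection on the median and quartiles was not tested.

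These shares were set against a common factor, the slope through the origin of the GR KO response on the control response over the 1306 genes called in control mice with a change of 2-fold or more in either direction. The slope was 0.279. It covers genes that rose and genes that fell, the 6 genes among them, and lies below the median share of 36.7% among the genes that rose. A typical risen gene therefore lies above this line. The standard errors below take the slope as fixed and leave out its own error. These genes were selected on the control response, and the effect of that selection on the slope was not tested. The comparison was chosen after the values had been seen. The GR KO response minus this factor times the control response was called for 0 of 6 genes, with 0.351% of all genes called higher and 0.0451% lower in limma. At an unadjusted p under 0.05, which 12% of all genes reached, it deviated for 4 of 6: Lcn2 (2.03 ± 0.57, adjusted p = 0.168), Havcr1 (1.79 ± 0.48, adjusted p = 0.150) and Timp1 (1.00 ± 0.32, adjusted p = 0.225) upward, and Sox9 (-0.57 ± 0.13, adjusted p = 0.0766) downward. Lcn2 passed without GR KO healthy replicate 1 (2.75 ± 0.25, adjusted p = 0.00235), and Timp1 passed without GR KO AKI replicate 3 (1.40 ± 0.16, adjusted p = 0.00417). Sox9 passed in none of the 12 fits without 1 array (adjusted p from 0.0532 to 0.249). It did pass without dim genes (adjusted p = 0.0412), with a trended robust prior (0.0458), with array weights (0.00535) and without both arrays that stood apart (0.0369). The weights of control AKI replicates 1, 2 and 3 were 0.18, 5.09 and 0.62, so the weighted fit leans on replicate 2 there. Whether Sox9 passes this comparison therefore depends on the setting.

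**Figure D3:**
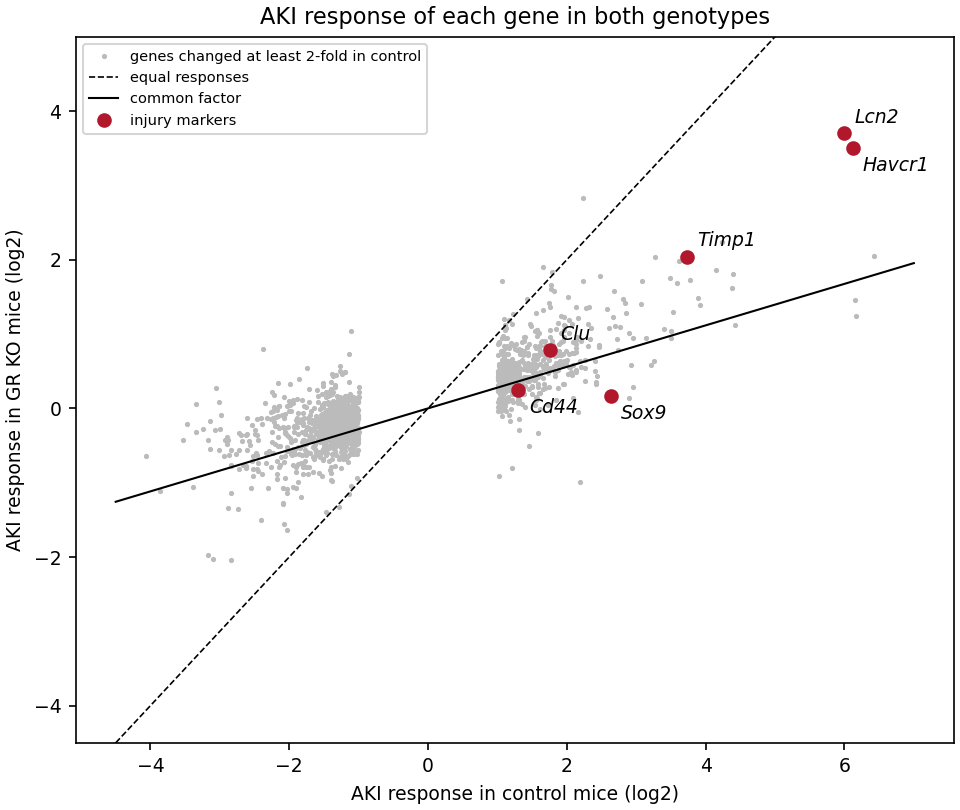
Each grey point is 1 of the 1306 genes behind the common factor, with the AKI response in GR KO mice on the y axis and in control mice on the x axis, both on the log2 scale; the dashed line marks equal responses and the solid line the common factor of 0.279. The 6 injury markers (red) all lie below the dashed line, with Lcn2, Havcr1 and Timp1 above the solid line and Sox9 below it.

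In healthy mice no gene of the 6 was called between the genotypes in limma, where 0.0351% of all genes were called higher and 0.110% lower in GR KO mice. Sox9 came closest, at 6.84 ± 0.11 in GR KO and 6.50 ± 0.17 in control mice (SD, n = 3 each). The 3 GR KO arrays lay above the 3 control arrays, as they did for 8.08% of all genes (10.6% lay below), and the difference was 0.34 ± 0.12 (adjusted p = 0.333, 0.0138 unadjusted), the only one of the 6 under 0.05 before adjustment, where 10.7% of all genes were. The other differences ran from 0.02 for Cd44 to 0.47 for Lcn2. Without GR KO healthy replicate 1 the difference was -0.31 for Havcr1 and -0.48 for Lcn2, so the sign of both rests on that array. The 95% intervals were -0.73 to 1.26 for Havcr1 and -0.69 to 1.64 for Lcn2.

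GR KO healthy replicate 1 differed from the rest of its group most in Lcn2 and Havcr1 among the 6 genes. Against the mean of the other 2 arrays of its group, Lcn2 was 2.86 higher and Havcr1 1.73 higher on the log2 scale, ranks 2 and 4 of 19938 genes. Timp1 was 0.11 higher, and Cd44 (-0.12), Clu (-0.12) and Sox9 (-0.16) were lower. Lcn2 at 9.94 and Havcr1 at 8.11 lay above the highest healthy control array (7.72 and 7.28), and so did Sox9 at 6.74 (6.63) and Timp1 at 5.90 (5.64). The last 2 are not particular to replicate 1. Sox9 was higher on replicates 2 (6.84) and 3 (6.96), and Timp1 was higher on replicate 2 (5.97). Further injured tubule genes were higher on replicate 1 too. Of 29 measured, 18 were highest on it, a share of 62.1% against 34.5% of all genes. Of the 29, 2 exceeded the other arrays by at least 1, against 39 of all genes. These were S100a6, a calcium-binding protein (1.15), and Krt20, an epithelial keratin (1.12). Other lists were also often highest on this array: 9 of 11 fibroblast and mural cell markers (81.8%, median 0.22 higher, against 0.14 for injured tubule genes), 11 of 19 injury and repair factors (57.9%) and 8 of 16 metalloproteinases and TIMPs (50%). On the same array 0 of 13 proximal tubule markers were the highest of the group, and their median was 0.42 lower. Small non-coding RNAs also led this array, with Snord118 (3.38 higher) and Rnu3a (1.65) among the 10 genes with the largest difference, which are named after their values were seen. The part of RNA quality or handling in these values was not tested.

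**Figure D4:**
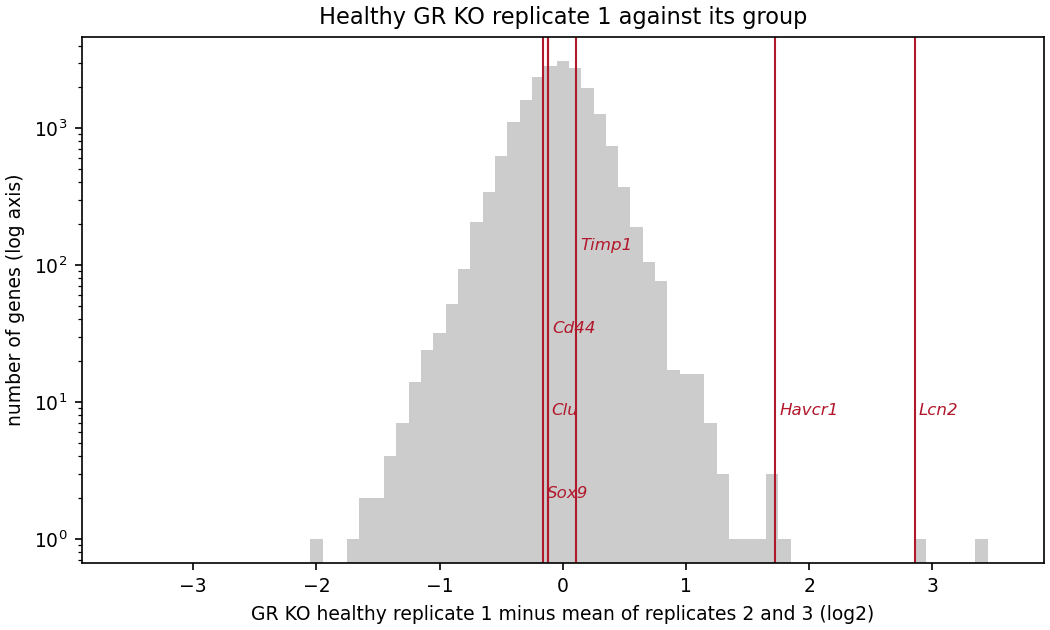
The histogram counts all 19938 genes (log y axis) by the log2 difference between GR KO healthy replicate 1 and the mean of replicates 2 and 3, and red lines mark the 6 injury markers. Lcn2 (2.86) and Havcr1 (1.73) lie at the far right, and the other 4 lie within 0.2 of 0.

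Within the AKI groups the 6 genes tended to be low on the same array. GR KO AKI replicate 3 was the lowest of its group for 6 of 6 genes, and for 73.6% of the 519 genes that rose in control mice, against 30.8% of all genes. Control AKI replicate 1 was the lowest for 5 of 6, for 55.3% of the 519 genes and for 36.5% of all genes. The spread within GR KO AKI was wide for Timp1 (SD 0.91), Havcr1 (0.83) and Lcn2 (0.57), and it was narrower in control AKI (0.22, 0.10 and 0.11).

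Other genes of injured tubule showed the same contrast between genotypes. For this and the later lists, 3.29% of all genes were called higher and 1.35% lower with AKI in GR KO mice. In control mice the shares were 13.6% and 15.1%, and between genotypes in AKI 10% and 7.34%. Of 35 symbols listed, 29 were measured. The unmeasured symbols include Cyr61 and Ctgf, older names of Ccn1 and Ccn2, which are in the list and were measured. In GR KO mice 11 rose with AKI and 0 fell, with a median of 0.53 against -0.03 over all genes, and in control mice 24 rose and 1 fell, with a median of 1.46 against 0.00. Tnfrsf12a, the TWEAK receptor, changed by 1.98 in GR KO and 3.61 in control mice, and Lgals3, the lectin galectin-3, by 1.48 and 2.80. S100a10 (0.92), an annexin partner, and Tagln2 (0.79), an actin-binding protein, also rose in GR KO mice. In control mice Krt20 (6.15) and Anxa3 (2.96), an annexin, had the smallest p. Between genotypes in AKI, 18 were lower and 3 higher in GR KO mice, with Krt20 (-4.46), Anxa3 (-1.65) and Plaur (-2.13), the urokinase receptor, lower and Prom1 (1.01), a membrane glycoprotein, higher. The interaction was called for 16, all negative, where 4.06% of all genes were called negative and 7.39% positive. In healthy mice 0 were called between genotypes, where 0.0351% of all genes were called higher and 0.11% lower. Their median there was 0.23 against -0.01 over all genes.

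Transcription factors of injury and repair, the group to which Sox9 belongs, changed mostly in control mice. Of 21 listed, 19 were measured. With AKI 2 of 19 rose in GR KO mice and 0 fell, namely Fosl1 (1.48), a partner of JUN, and Myc (1.40), a growth factor-induced regulator. In control mice 15 rose and 2 fell, led by Fosl1 (3.89), Klf6 (2.43), Runx1 (1.79) and the stress factor Atf3 (3.50). In AKI 15 were lower in GR KO mice and 2 higher, among them Fosl1 (-2.19), Runx1 (-1.38), Klf6 (-1.66) and Atf3 (-2.42). The interaction was called negative for 14 and positive for 1, where 4.06% of all genes were called negative and 7.39% positive. Klf6 (0.43, adjusted p = 0.223) and Atf3 (1.04, adjusted p = 0.0712) did not pass with AKI in GR KO mice.

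Receptors, ligands and sheddases of the 6 proteins are read against the shares of all genes. Of 17 measured, 1 rose and 0 fell with AKI in GR KO mice, namely Lrp8 (0.58), a lipoprotein receptor that binds clusterin. In control mice 3 rose and 3 fell, near the shares of all genes, of which 13.6% were called higher and 15.1% lower. Lrp8 rose (1.58), as did Itgb1 (0.63), an integrin chain, while Lrp2 (-1.39), the proximal tubule receptor megalin that takes up NGAL, and Vldlr (-0.97), a relative of Lrp8, fell. In AKI 2 were higher in GR KO than in control mice, Lrp2 (1.23) and Vldlr (0.69). Lower were 3, Lrp8 (-1.11) and Itgb1 (-0.50) among them. Of all genes 10% were called higher, near the share in this list, and 7.34% lower.

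Metalloproteinases and the other TIMPs were called in both directions in control mice. With AKI in GR KO mice 0 of 16 measured rose and 1 fell, Mmp2 (-0.46), a gelatinase. In control mice 7 rose and 2 fell (13.6% of all genes were called higher and 15.1% lower), with Adamts1 (2.40), Mmp10 (1.73) and Mmp8 (0.83) higher and Timp3 (-1.22), a matrix-bound inhibitor, lower. In AKI 5 were lower in GR KO mice, among them Adamts1 (-1.51), Mmp10 (-1.49), Mmp8 (-0.94) and Mmp7 (-0.74), and 2 were higher.

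A list of cytokines, receptors and signalling genes upstream of Lcn2 and Timp1, with the feedback gene Socs3, was also counted. Of 13 measured, 2 rose in GR KO mice with AKI, Osmr (1.02), the oncostatin M receptor, and Lif (0.60), a cytokine of the IL-6 family. In control mice 9 rose and 0 fell, with Lif (1.61), Socs3 (2.26), a feedback inhibitor of STAT3, Osmr (2.04) and Tgfb1 (0.99) having the smallest p. In AKI 9 were lower in GR KO mice and 0 higher, led by Lif (-1.04), Socs3 (-1.46), Il11 (-0.79) and Il6 (-1.35), and Osm, Il6st, Il17ra and Tnf did not pass.

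Markers of other cells are read against the shares of all genes. With AKI 3.29% of all genes were called higher and 1.35% lower in GR KO mice, and 13.6% and 15.1% in control mice. Between genotypes in AKI 10% were called higher and 7.34% lower in GR KO mice. For the interaction 7.39% were called positive and 4.06% negative. The macrophage and podocyte counts in control mice were near these shares. Of 13 neutrophil markers, 0 rose with AKI in GR KO mice and 5 rose in control mice, S100a8 (2.05), S100a9 (1.76), Cxcr2 (1.66) and Retnlg (1.57) among them, and 5 were lower in GR KO AKI than in control AKI. The sum of their linear values lay between 835 and 895 in GR KO AKI, against 779 to 879 in healthy GR KO, and between 1207 and 1625 in control AKI, against 775 to 877 in healthy control. Neutrophils store NGAL, and their part in the Lcn2 values was not tested. In GR KO mice S100a8 (0.55, adjusted p = 0.150) and S100a9 (0.55, adjusted p = 0.107) did not pass with AKI. For macrophages, 1 of 13 rose with AKI in GR KO mice, Cd68 (1.28). In control mice 2 rose, Cd68 (2.85) and Itgam (0.99), and 1 fell, Csf1r (-0.85). The median change over the 13 was only 0.10 in GR KO and 0.01 in control mice. In AKI Cd68 (-1.70) and Itgam (-0.87) were lower and Csf1r (0.59) higher in GR KO than in control mice. Sums of linear values, which weigh bright genes most, were 2128 to 2627 in GR KO AKI against 1977 to 2320 in healthy GR KO. In control mice they were 2713 to 3207 with AKI against 2040 to 2278 when healthy. Among fibroblast and mural cell markers, 2 of 11 rose in GR KO mice, Pdgfrb (0.87) and Acta2 (0.46), and 5 rose and 2 fell in control mice, with sums of 4217 to 4447 in GR KO AKI, 3263 to 3880 in healthy GR KO, 3971 to 4665 in control AKI and 3281 to 3869 in healthy control. Their part in the Cd44 and Timp1 values was not tested. Endothelial markers were called in both directions: of 10, 0 were called with AKI in GR KO mice, and 3 rose and 3 fell in control mice, with Kdr (-0.94) and Ehd3 (-1.51) lower. In AKI 3 were higher and 2 lower in GR KO than in control mice, and the interaction was called for 4. Of 5 podocyte markers, 0 were called with AKI in GR KO mice, Synpo (0.63) rose and Podxl (-0.35) fell in control mice, and in AKI Podxl (0.43) was higher and Synpo (-0.40) lower in GR KO mice. Lymphocyte (10 measured) and skeletal muscle markers (8) had 0 called in any of these comparisons.

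Genes of the uninjured nephron moved the other way from the 6 markers. Of 13 proximal tubule genes, 0 rose and 2 fell with AKI in GR KO mice, Slc5a2 (-0.64), the glucose transporter SGLT2, and Miox (-0.46), an inositol oxygenase. In control mice 13 of 13 fell. In AKI 12 of 13 were higher in GR KO than in control mice, led by Miox (1.62), the water channel Aqp1 (1.28), the organic anion transporter Slc22a8 (1.94) and the amino acid transporter Slc7a13 (1.91). Of 12 genes of the loop, distal tubule and collecting duct, 3 fell in GR KO mice and 9 in control mice, and 9 were higher in GR KO AKI, among them Slc12a1 (2.44), the NKCC2 cotransporter.

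**Figure D5:**
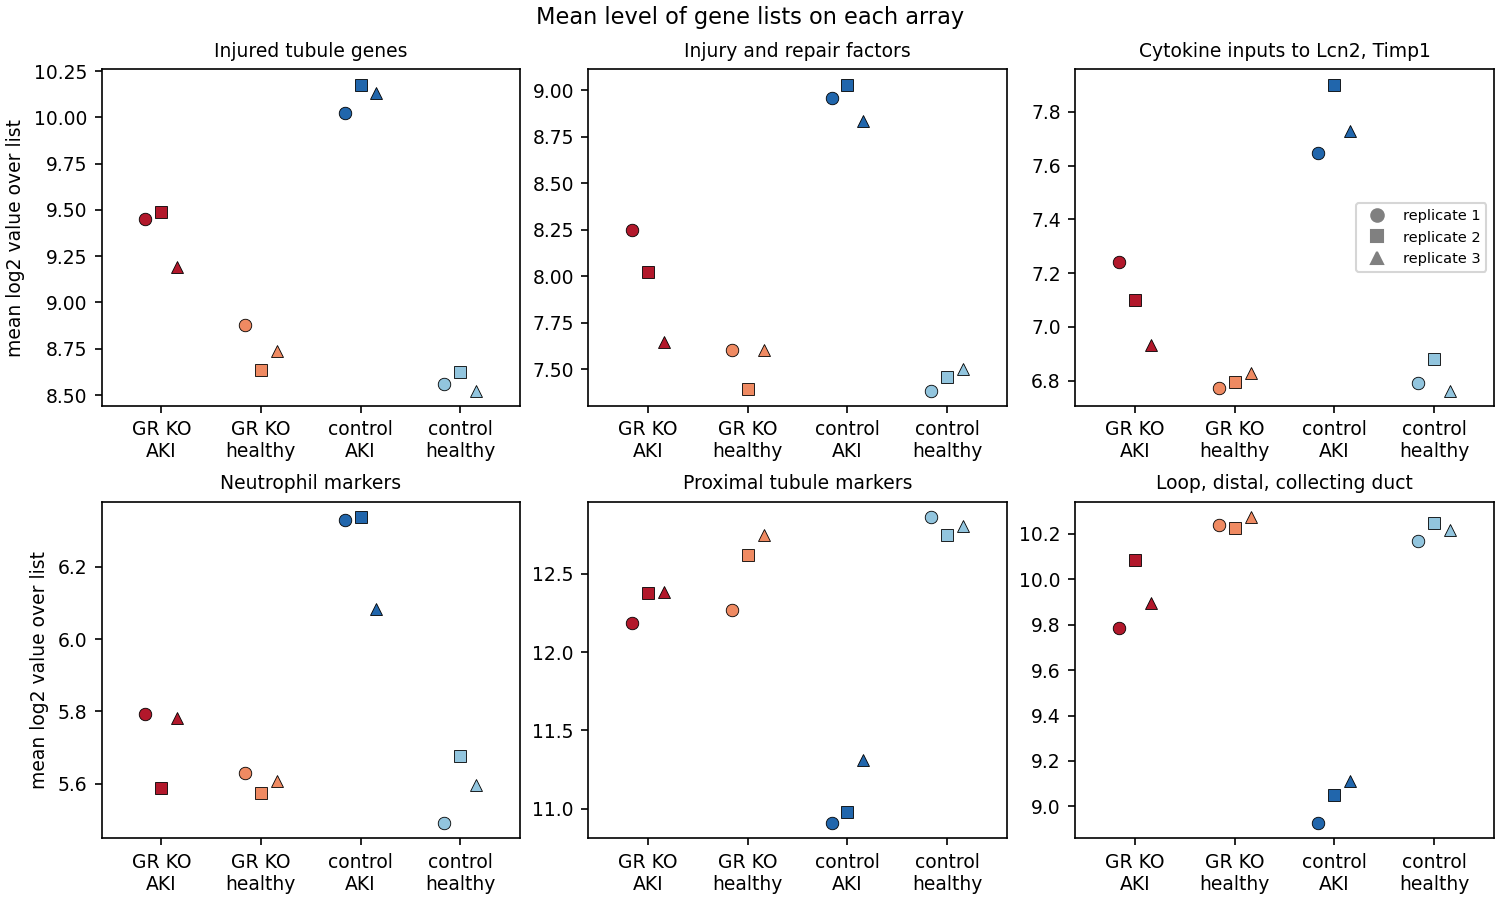
Each panel plots, for 1 gene list, the mean log2 value over its measured genes on each of the 12 arrays, by group and replicate; the y axes differ between panels. Injured tubule genes averaged 9.19 to 9.49 in GR KO AKI, 8.64 to 8.88 in healthy GR KO, 10.02 to 10.18 in control AKI and 8.52 to 8.62 in healthy control, and by group mean the proximal tubule markers ran in the opposite order, with 12.19 to 12.38 in GR KO AKI overlapping 12.27 to 12.75 in healthy GR KO.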

How the data were processed

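What the authors deposited is 1 table of log2 expression values. Per the submitters' processing notes it was made with RMA (robust multichip averaging), affy and oligo, with no version or log base stated, and log2 was taken from the range (array maxima of 14.7 to 14.9). RMA fits the arrays to 1 distribution, so a shift of the whole transcriptome cannot be seen. No further normalization was applied. Of 35556 probe sets, 21789 had exactly 1 symbol, 1621 several and 12146 none in the platform table. The brightest probe set by mean was kept where a gene had several (999 genes), leaving 19938. In R 4.3.3, limma 3.58.1 (lmFit, eBayes) fitted 4 group means with 8 residual and 6.26 prior degrees of freedom. Contrasts were AKI against healthy within each genotype, GR KO against control within each condition, and the interaction. P-values are two-sided, adjusted by Benjamini-Hochberg over all genes; the fit was tested on simulated data. Intervals are 95%. The 6 genes and all lists were chosen with earlier results of these data known. Genes named from a list are the up to 4 with the smallest p among those called, and patterns were compared over 12 arrays, 3 nearest genes each, skipping predicted and small RNA genes; the array number limits precision.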

Additional observations from a re-analysis of the deposited data

Results flagged for a closer look

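For 5 of the 6 genes the AKI response differed between the genotypes by the interaction test in limma (n = 3 per group), with the GR KO response smaller each time. The interaction was -2.62 on the log2 scale for Havcr1, -2.47 for Sox9, -0.98 for Clu, -1.69 for Timp1 and -1.05 for Cd44. For Sox9 and Cd44 the GR KO response itself did not pass, whereas for Havcr1, Clu and Timp1 both responses did. Groups of 3 arrays are too small to test single arrays as outliers.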

How the results depend on the processing

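The 6 genes gave 816 results over the alternative settings, of which 784 kept direction and side of the threshold, 15 came to pass, 11 no longer passed and 6 reversed. The reversals were all between genotypes in healthy mice, where none of the 6 was called. Without GR KO healthy replicate 1, and also without that array and control AKI replicate 1 (chosen after seeing the data), Havcr1 was -0.31 and Lcn2 -0.48, and with array weights Lcn2 was -0.27. Array weights ran from 0.18 (control AKI replicate 1) to 5.09 (control AKI replicate 2), so weighted results for control AKI lean on replicate 2. Leaving out 1 array gave -0.31 to 0.81 for Havcr1, -0.48 to 1.00 for Lcn2 and -0.0244 to 0.0573 for Cd44. For genes called among all genes, array weights gave 3196 against 926 for AKI in GR KO mice, 9648 against 5715 for AKI in control mice, 301 against 29 between genotypes in healthy mice, 7000 against 3460 between genotypes in AKI, 4905 against 2283 for the interaction and 787 against 79 for the common factor comparison. Testing for a change above 1.2-fold gave 153, 2870, 7, 1244, 916 and 8 in the same order. In healthy mice cyclic loess gave 61, leaving out dim genes 63, a trended robust prior 71 and only the compared groups 14. For the common factor comparison, leaving out dim genes gave 132 and the trended prior 128, and of the 6 genes these called 1 each (Sox9), array weights 4 and the fit without both arrays 2 (Sox9 and Lcn2). Leaving out 1 array gave 277 to 1448 genes for AKI in GR KO mice, 10 to 115 in healthy mice, and 17 to 187 (0 to 1 of the 6) for the common factor comparison. Quantile normalization gave 659 genes higher and 436 lower with AKI in GR KO mice, against 656 and 270, and 1377 and 1219 for the interaction, against 1473 and 810. The replicate block gave 671, 5368, 25, 3104 and 2013 genes called, and 4, 6, 0, 6 and 5 of the 6, for the 5 comparisons in the order above. Deviations of arrays with the same number correlated between -0.41 and 0.25, so the numbers were not taken as pairs. Lcn2 between genotypes in AKI did not pass with the trended prior (adjusted p = 0.116) or above 1.2-fold (0.0970), and Havcr1 did not pass the interaction with the trended prior (0.0749). Above 1.2-fold, Clu with AKI in GR KO mice (0.124) and the Timp1 interaction (0.0569) did not pass. The causes were not tested. Depth does not apply to arrays, and 3 per group limit the precision.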
